A study of Mus musculus with 6 samples.

Results

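Described here are 34 mouse genes of photoreceptor structure, cilium, guanylate cyclases, metabolism, matrix and channels, most known for inherited retinal dystrophy in people. They were taken by gene symbol from a list fixed for this description, out of the 23420 genes of the count table. Of the 34, 33 were found under their own symbol and 1, Prcd, under its older symbol Gm11744. All 34 passed the filter on low counts in every comparison, with raw counts from 349 (Spata7) to 159989 (Prph2) per library.

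The libraries came from whole mouse retina in 3 groups of 2 biological replicates, sequenced as poly(A) RNA to ask how the light-damaged retina and its response to minocycline look across the transcriptome. In the labels the strain is CD1 and the controls had no treatment. Control retinas were compared with retinas taken 4 days after 1 h of light at 10000 lux. They were also compared with retinas after the same light from mice that had minocycline, a tetracycline antibiotic. By the labels the drug was injected intraperitoneally at 45 mg/kg every day for 4 days. The labels give no age, no number of animals per library and no vehicle for the light-only or control mice. The study's methods name another albino strain, another light intensity and another dosing schedule. In that schedule minocycline began 1 day before the light, with 2 injections a day at first and 1 a day later. The 2 minocycline columns carry the same header, so they are called minocycline A and B without a replicate number.

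The outer segment of a rod or cone is a modified cilium filled with stacked membrane discs that hold the visual pigment. It is rebuilt continuously: new discs form at its base from proteins and lipids carried through the narrow connecting cilium, while the old tip is taken up by the retinal pigment epithelium. Rods far outnumber cones in the mouse retina, and many of the genes below are known in people by the blindness that follows when they fail, such as retinitis pigmentosa or Leber congenital amaurosis.

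Depth ranged from 15205930 to 22856922 counts per library, and rod photoreceptor genes were abundant in all 6: the 15 genes of the rod phototransduction cascade took 6.07% to 11.5% of all counts. Several libraries stood apart in other ways. The summed level of 12 microglial markers, in counts per 1000000 (CPM, scaled by the trimmed mean of M-values), was 78.5 and 86.0 in the controls, 530 in light 1, 1642 in light 2, and 153 and 77.5 in minocycline A and B. Transcripts of 8 corneal epithelial markers summed to 204 and 287 CPM in minocycline A and B and to between 2.5 and 16.1 CPM elsewhere, 6 pigment cell markers to 307 and 1384 CPM against 15.8 to 72.5 CPM, and 8 lens markers to 196 CPM in light 1 against 1.0 to 20.2 CPM. The 12 amacrine and ganglion cell genes summed to 1058 CPM in minocycline A and 406 to 649 CPM in the other 5 libraries. Xist had 77778 counts in control 1 and 25 to 188 counts in the other 5 libraries, while 4 Y-linked genes summed to 11 counts in control 1 and 6532 to 12858 counts in the others. The part that these transcripts play in the results was not tested.

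The set lay lower 4 days after light. In 33 of 34 genes both light libraries were below both controls, a pattern found in 30.8% of all 14349 genes tested, and the exception was Spata7. Levels in light-exposed retina stood at a median of 62.6% of the control mean, from 52.7% (Kcnv2) to 101.8% (Spata7), with 12 genes under 60%, 18 between 60% and 80% and 4 above 80%. The median fitted log2 fold change was -0.67 against 0.00 over all genes tested. At an adjusted p under 0.05 (edgeR quasi-likelihood test, Benjamini-Hochberg over all genes tested), 10 of 34 fell, beside 3.8% of all genes called lower, and none rose, beside 7.52% called higher. By an unadjusted p under 0.05, 27 passed, all of them lower, beside 12.3% of all genes. None also passed the study's cutoff of 2 on the log2 scale, which 4 genes passed downward in the whole table (0.0279%).

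Which genes were called depended on single libraries and on the tool. The 10 called genes ranged only from -0.92 to -0.68 in log2 fold change, and others that missed the threshold, such as Prph2, Rp1 and Abca4, lay within that range. Without control 1, without control 2 or without light 2 each of the 10 calls was lost, and calls were few over the whole table as well, at 0.0%, 0.249% and 0.372% of all genes lower. Without light 1 there were 19 calls, beside 3.13% of all genes. DESeq2 called 27 lower, beside 5.28% of the genes to which it gave an adjusted p. The count was 20 without a filter on low counts (4.54% of all genes), 6 without robust estimation (3.25%), 4 with all 6 libraries in one fit (2.39%) and 21 with the replicate number as a block (5.97%). Scaling by total counts instead of the trimmed mean called none of the 34, beside 0.927% of all genes, with a median of -0.43 against 0.24 over all genes. In bulk tissue, fewer photoreceptors and less RNA of these genes per photoreceptor cannot be told apart.

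**Figure D1:**
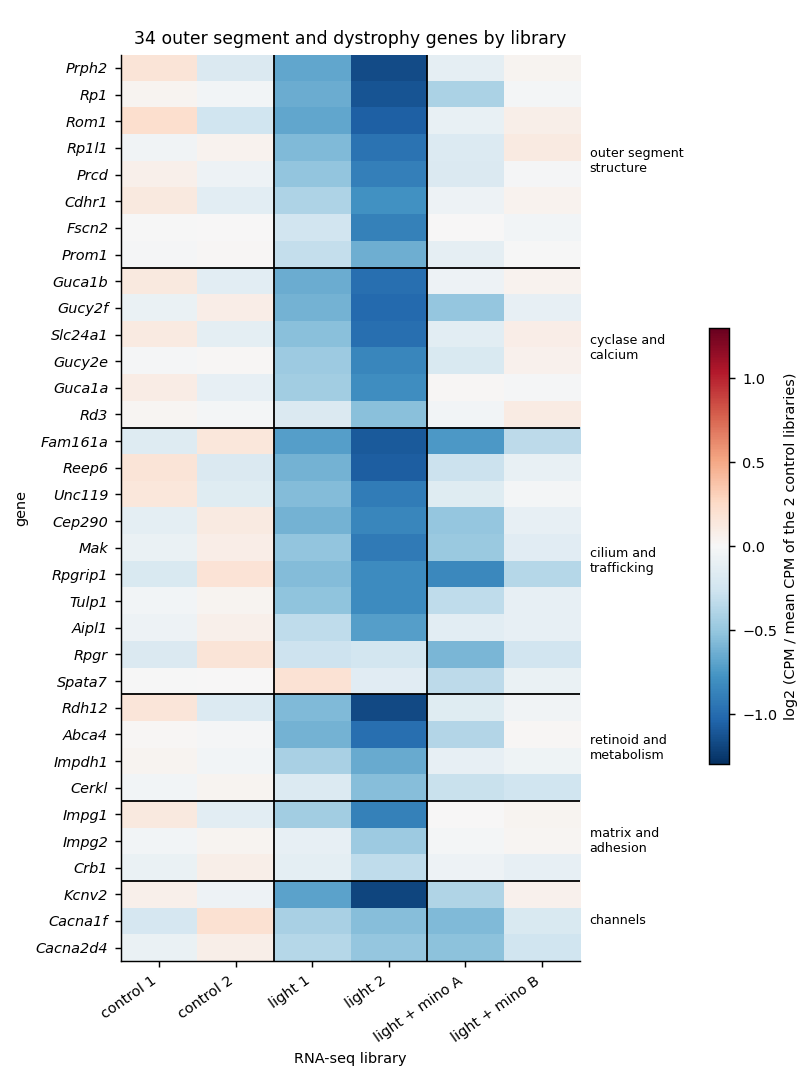
Level of each of the 34 genes (rows, grouped by role) in each of the 6 libraries (columns), as the log2 ratio of its CPM to the mean of the 2 control libraries. Both light libraries lie below both controls in 33 of 34 rows, light 2 lies below light 1 in 33 rows, and minocycline B lies above minocycline A in 31.

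The outer segment structure group holds the proteins that shape the discs and the axoneme along which they stack. Its median log2 fold change after light was -0.71. All 8 genes lay below both controls in both light libraries, beside 30.8% of all genes tested. By the test 2 of 8 fell, beside 3.8%. Prph2 encodes peripherin, the tetraspanin of the disc rim, and it had the highest level per length of all 34, at 2839 RPKM (reads per kilobase of exon, scaled for depth like the CPM) in control retina. It lies at chr17:46910459-46924933, plus strand, in the mm10 build of the files. Its level was 8477 and 6652 CPM in the controls, 4721 and 3388 CPM in light 1 and 2 and 6996 and 7754 CPM in minocycline A and B. The light libraries were thus the lowest pair and did not overlap the controls, but the difference missed the threshold at a log2 fold change of -0.89 ± 0.28 (SE, adjusted p = 0.0652). Rom1, the tetraspanin that pairs with peripherin in the rim, was next per length at 2317 RPKM and had almost the same values relative to control, with 55.2% left after light against 53.6% for Prph2.

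The 2 genes that passed were Rp1l1 and Prcd. Rp1l1 (chr14:63992506-64035025, plus strand), a relative of the axonemal microtubule protein Rp1, had 1117 and 1195 CPM in the controls and 779 and 594 CPM after light, and 1023 and 1249.8 CPM with minocycline. Both light libraries were well below the other 4, and the fall of -0.74 ± 0.21 passed at an adjusted p of 0.0424. Prcd (chr11:116653534-116668389, plus strand), a small disc membrane protein, had 409 and 372 CPM in the controls, 274 and 210.3 CPM after light and 343 and 385 CPM with minocycline. Its log2 fold change was -0.68 ± 0.18 (adjusted p = 0.0351), though its span overlaps the opposite-strand gene Cygb, and whether the counting used strand is not given in the sources used here. Rp1 itself, which organises the axoneme, had a larger fitted change of -0.86 ± 0.25 but an adjusted p of 0.051. The smallest fitted changes in the group were -0.57 for Cdhr1, a cadherin at the edge of nascent discs, -0.52 for the actin-bundling Fscn2 and -0.45 for Prom1, prominin of the evaginating membrane, none of which passed.

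The retinal guanylate cyclases, their calcium sensors and the calcium exchanger restore the dark state after a flash. In this group of 6 the median log2 fold change was -0.69. All lay below both controls after light, beside 30.8% of all genes tested, and 2 fell by the test, beside 3.8%. Gucy2f (chrX:142081160-142196931, minus strand), 1 of the 2 retinal cyclases, had 995 and 1119.9 CPM in the controls and 691 and 524 CPM after light, 57.5% of control, with 746 and 981 CPM in minocycline A and B. Its change was -0.79 ± 0.21 (adjusted p = 0.0352). Guca1b (chr17:47385393-47392967, plus strand), a calcium sensor that activates the cyclases when calcium is low, had 1779 and 1492 CPM in control, 1049 and 828 CPM after light and 1567 and 1686 CPM with minocycline. It fell by as much, at -0.79 ± 0.22 (adjusted p = 0.0413), and both minocycline libraries lay within the range of the controls.

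Guca1b and the other sensor, Guca1a (chr17:47394558-47400584, minus strand), are neighbours on opposite strands, tail to tail. Guca1a was the third highest of the 34 per length at 2129 RPKM, and its change was -0.61 ± 0.22 (adjusted p = 0.0994). The difference between the pair in response to light was not tested. Gucy2e, the other cyclase, had -0.64 and Slc24a1, the rod sodium, calcium and potassium exchanger, had -0.74, both short of the threshold at 0.0728 and 0.066. Rd3, which escorts the cyclases out of the inner segment, stood nearest to control at 78.2%, with 216 and 208 CPM in control and 186 and 145 CPM after light.

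The 10 genes of the connecting cilium and of protein delivery held 4 of the 10 called genes. Their median log2 fold change was -0.69, and 9 of 10 lay below both controls, beside 30.8% of all genes tested. The share called lower was 3.8% of all genes. Fam161a (chr11:23007531-23030788, plus strand), a scaffold protein of the connecting cilium, had the smallest p of all 34. It had 466 and 582 CPM in the controls and 320.1 and 246 CPM after light, a change of -0.88 ± 0.20 (adjusted p = 0.0221). With minocycline its level was 312 and 413 CPM, so that minocycline A fell between the 2 light libraries. Cep290 (chr10:100487558-100574840, plus strand), a transition zone protein, had 408 and 482 CPM in control, 291 and 248 CPM after light and 314 and 414 CPM with minocycline. Its fall was -0.71 ± 0.17 (adjusted p = 0.0279), and its span overlaps an opposite-strand gene, 4930430F08Rik.

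The other 2 calls were Reep6 and Mak. Reep6, a membrane-shaping protein needed for rod vesicle traffic, had 1378 and 1078 CPM in control and 805 and 584 CPM after light (-0.81 ± 0.23, adjusted p = 0.0424). Mak, a kinase that limits ciliary length, had 438 and 493 CPM and 326 and 246 CPM (-0.69 ± 0.19, adjusted p = 0.0381). Unc119, which carries lipid-anchored transducin, was the fourth highest per length at 1507 RPKM and had -0.72 ± 0.23 (adjusted p = 0.0685). Rpgrip1, the anchor of Rpgr in the connecting cilium, Tulp1, needed for protein delivery to the outer segment, and Aipl1, the chaperone of the rod phosphodiesterase, had -0.68, -0.66 and -0.50 without passing.

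Spata7 and Rpgr stood apart from the other cilium genes. Spata7 (chr12:98628157-98669815, plus strand), a connecting cilium protein, was the lowest of the 34 per length at 12.2 RPKM. It had 24.9 and 25.2 CPM in the controls and 28.4 and 22.6 CPM after light, so the light libraries straddled the controls. Its fitted change was 0.03 ± 0.18, with a 95% interval of -0.37 to 0.44 on the log2 scale. Rpgr (chrX:10073621-10216920, minus strand), a regulator of ciliary traffic, had 125 and 160.2 CPM in the controls and 118 and 121 CPM after light. Its change of -0.25 ± 0.16 did not pass (adjusted p = 0.348). Both light libraries lay close under control 1, and its span overlaps Srpx on the same strand. Rpgr, Gucy2f and Cacna1f are the 3 X-linked genes of the set. All 3 were lower in control 1, the library with Xist, than in control 2, as were 18 of the 34 genes in all.

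**Figure D2:**
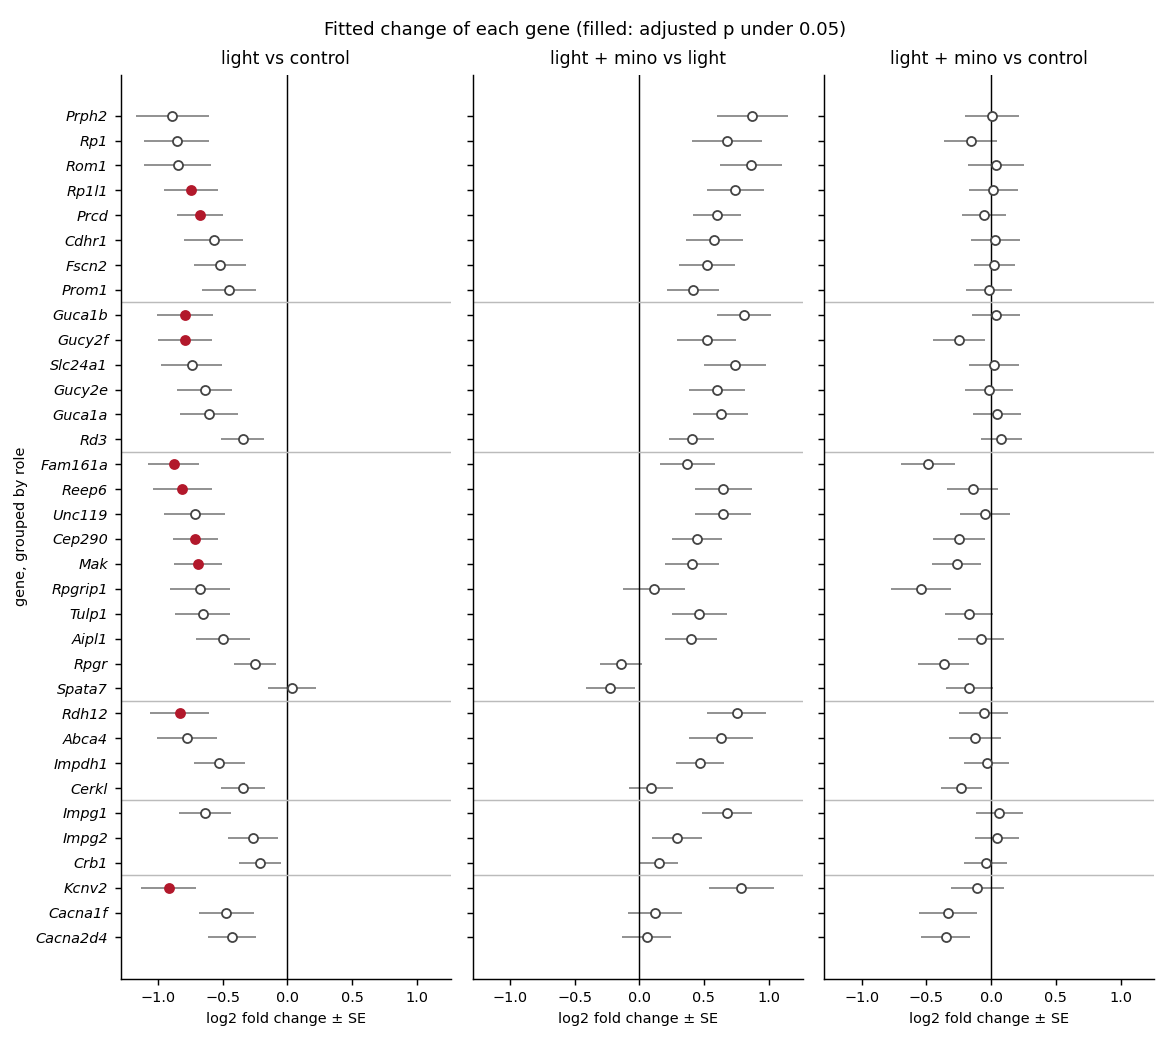
Fitted log2 fold change with its SE for each of the 34 genes, by role, in the 3 comparisons. Filled points passed an adjusted p of 0.05 (10 genes, all in light against control), and open points did not. With minocycline against control 23 of 34 values lie below 0, and they range from -0.55 (Rpgrip1) to 0.08 (Rd3).

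In the retinoid and metabolism group, Abca4 and Rdh12 handle retinoids, Impdh1 serves nucleotide synthesis and Cerkl is ceramide kinase-like. Their median was -0.65. All 4 lay below both controls after light, beside 30.8% of all genes tested, and 1 fell by the test, beside 3.8%. Rdh12 (chr12:79208914-79222665, plus strand), a reductase that removes free retinal in the inner segment, had 880.0 and 701 CPM in control, 531 and 351 CPM after light and 709 and 764 CPM with minocycline. Its fall was -0.83 ± 0.23 (adjusted p = 0.0424), with light 2 well under light 1. Abca4 (chr3:122044443-122180123, plus strand), the disc transporter that moves retinal conjugates to the outer side of the disc membrane, had 2883 and 2821 CPM, 1858 and 1443 CPM and 2196 and 2879.5 CPM in the same order. Its control libraries nearly coincided, and the change of -0.78 ± 0.23 just missed the threshold (adjusted p = 0.0533). Impdh1, an enzyme of guanine nucleotide synthesis, had -0.53 ± 0.19 and the ceramide kinase-like Cerkl had -0.34 ± 0.17. The Cerkl span also holds Neurod1 on the same strand, whose own log2 fold change was -0.59. That span overlaps the opposite-strand gene Itga4 as well.

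The matrix and adhesion group had the median nearest 0 of the 6 roles, at -0.27, and none of its 3 genes passed. All 3 lay below both controls in both light libraries, a pattern found in 30.8% of all genes tested. Impg1 (chr9:80313330-80465481, minus strand) and Impg2 (chr16:56204313-56273756, plus strand) encode proteoglycans of the matrix around the outer segments. Impg1 had 744 and 619.6 CPM in control, 499 and 371 CPM after light and 682 and 700.1 CPM with minocycline, a light effect of -0.64 ± 0.20 (adjusted p = 0.0647). Impg2 had 697 and 729 CPM, 662 and 516 CPM and 701 and 727 CPM, a light effect of -0.27 ± 0.19 (adjusted p = 0.395), with light 1 close under the controls. The difference between the pair was not tested. Crb1, a polarity protein of the outer limiting membrane, had -0.21, with 295 and 330.2 CPM in control and 287 and 249 CPM after light, and its fitted value was 0.02 under scaling by total counts.

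The channel group holds 1 inner segment potassium channel subunit and the presynaptic calcium channel. Kcnv2 (chr19:27322588-27337179, plus strand), the modifier subunit of the photoreceptor potassium channel, had the largest fitted fall of the 34. Its level was 1044 and 953 CPM in the controls, 615 and 436 CPM after light and 761 and 1038 CPM with minocycline. The change was -0.92 ± 0.21 with an interval of -1.38 to -0.45 (adjusted p = 0.024). Cacna2d4 (chr6:119236526-119352407, plus strand), the auxiliary subunit of the calcium channel at the photoreceptor terminal, had 856 and 959 CPM, 701 and 639 CPM and 625 and 756 CPM. Its change was -0.43 ± 0.19 (adjusted p = 0.159), and its span overlaps the opposite-strand gene Lrtm2. Cacna1f, the pore subunit of the same channel, had -0.47 ± 0.21 (adjusted p = 0.169).

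**Figure D3:**
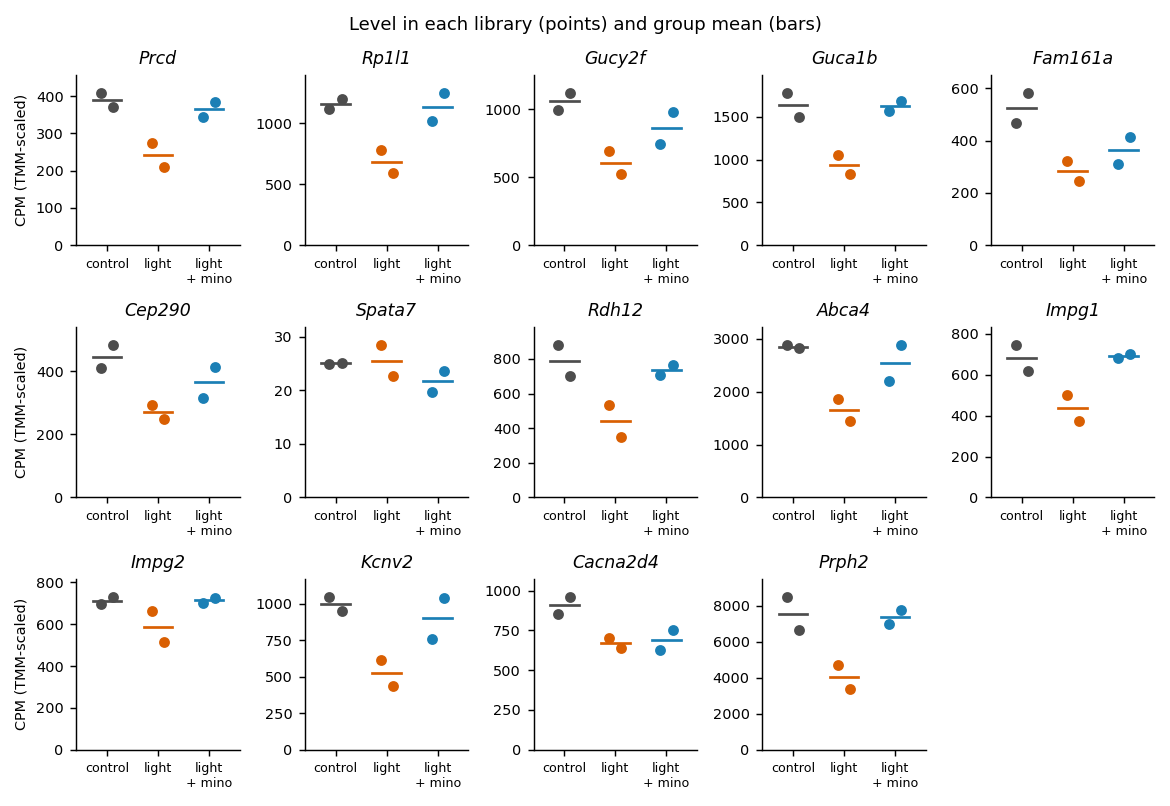
Level of 14 genes in CPM in each library (points) with the group mean (bars), for control, light, and light with minocycline, each axis starting at 0. The light points lie below the control points in every panel but Spata7, and the minocycline points lie above the light points in all panels but Fam161a, Spata7 and Cacna2d4.

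With minocycline the set lay higher than in light alone, but no gene passed. Both minocycline libraries were above both light libraries in 27 of 34 genes, a pattern seen in 26.8% of all 14750 genes tested, and the median log2 fold change was 0.52 against 0.01 over all genes. By the edgeR test 0 of 34 were called higher, beside 0.0136% of all genes. By an unadjusted p under 0.05, 19 passed, all higher, beside 9.04% of all genes, and DESeq2 called 17 higher, beside 2.9%. The largest fitted values were 0.88 ± 0.27 for Prph2 (adjusted p = 0.136), 0.86 ± 0.24 for Rom1 and 0.81 ± 0.21 for Guca1b, which had the lowest adjusted p of the set at 0.0983. The microglial markers had a median of -3.28 in the same comparison, and the corneal, pigment cell and smooth muscle markers, whose transcripts were high in the minocycline libraries, had medians of 4.58, 4.66 and 4.92 over 7, 6 and 5 genes tested.

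Against control, the minocycline group stood at a median of 93.2% of the control mean. Of the 34 genes, 20 were at 90% or more, 9 between 80% and 90%, and 5 under 80%. The median log2 fold change was -0.06 against 0.02 over all genes. By edgeR 0 of 34 were called lower, with 0.0% of all 14181 genes called lower, 2 of 34 were lower at an unadjusted p under 0.05, beside 1.62% of all genes, and DESeq2 called none, beside 0.0267%. Both minocycline libraries lay below both controls in 11 of 34 genes, a pattern seen in 24.5% of all genes. With 2 libraries a group, this does not show that the levels were equal: for Prph2 the 95% interval of the difference from control was -0.46 to 0.48 and for Guca1b it was -0.39 to 0.46 on the log2 scale.

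The medians of the roles against control were as follows. The outer segment structure and cyclase groups had medians of 0.01 and 0.03 against control. The cilium group had -0.21, with 7 of its 10 genes below both controls, and the channel group -0.33. The retinoid and metabolism group had -0.09 and the matrix and adhesion group 0.05. The difference between these groups was not tested, and the first pair changed sign to -0.10 and -0.06 without control 2 and to -0.11 and -0.10 without minocycline B. Over the fits that left out 1 library, the cilium median ranged from -0.42 to -0.07 and the channel median from -0.54 to -0.16. Across the 34 genes the values against control were lower where control 2 exceeded control 1 (Spearman's correlation of -0.65, 34 genes, both measures using the same controls). The 5 genes under 80% of control were Rpgrip1, Fam161a, Rpgr, Cacna2d4 and Cacna1f. Rpgrip1 (chr14:52110704-52163546, plus strand) had 1875 and 2431 CPM in control, 1454 and 1224 CPM after light and 1201 and 1664 CPM with minocycline, so that minocycline A lay under both light libraries. Its fitted value was -0.55 ± 0.23 against control and 0.11 ± 0.24 against light (adjusted p = 0.703 and 0.833), and its span overlaps the opposite-strand gene Supt16. Cacna1f had 1061 and 1414 CPM, 925 and 846 CPM and 829.5 and 1077 CPM, again with minocycline A under both light libraries. In all, minocycline A, which was also the library highest in amacrine and ganglion cell genes, lay at or under the higher light library in 7 genes and under both in 5, and minocycline B lay at or under the higher light library in 3 (Rpgr, Spata7 and Cerkl).

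Promoter sequence was examined as a description, and no link between it and the changes after light was tested. The homeodomain factor CRX, which is needed for photoreceptor gene expression, has the core letters TAATCC. RefSeq windows of 300 bases (250 before to 50 after a start, GRCm38.p6) were at hand for 28 of the 34 genes, 36 windows in all. Those of Guca1b, Kcnv2, Cacna2d4, Rp1l1, Rp1 and Reep6 were not used here. TAATCC stood on either strand in 9 of the 36 windows (25%) and in 7.06% of all 32851 windows. The 9 genes were Abca4, Aipl1, Guca1a, Gucy2e, Gucy2f, Mak, Prcd, Rpgrip1 and Unc119, of which 3 (Gucy2f, Mak and Prcd) were among the 6 called genes that had a window. The retinal leucine zipper half-site TGCTGA was in 13.9% of the windows of the set and 19.5% of all, and TATAAA in 11.1% and 13.6%. None of the 3 motifs contains another, and a base could count toward more than 1 of them.

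In 6 genes the letters lay within the 100 bases before the start, a limit chosen after the positions were seen, which held for 16.7% of the windows of the set and 2.3% of all windows. These 6 stretches are shown to let the position of the letters be seen, 5′ to 3′ along the gene and ending at the base before its RefSeq start, with TAATCC or its reverse complement GGATTA in capitals. They were Abca4 from chr3:122044360-122044459 on the plus strand, Gucy2e from chr11:69237023-69237122 on the minus strand and Aipl1 from chr11:72037510-72037609 on the minus strand. The others were Rpgrip1 from chr14:52110803-52110902 on the plus strand, Guca1a from chr17:47400607-47400706 on the minus strand and Gucy2f from chrX:142196937-142197036 on the minus strand. The RefSeq starts used here differ from those of the GENCODE spans given for the genes in each of the 6 but Aipl1: the whole Rpgrip1 stretch and the last bases of the Abca4 and Gucy2e stretches lie inside those spans.
Gucy2f: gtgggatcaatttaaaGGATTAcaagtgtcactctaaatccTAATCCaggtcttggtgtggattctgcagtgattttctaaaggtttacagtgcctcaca
Guca1a: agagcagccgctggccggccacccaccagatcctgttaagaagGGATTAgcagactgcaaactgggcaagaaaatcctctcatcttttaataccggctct
Gucy2e: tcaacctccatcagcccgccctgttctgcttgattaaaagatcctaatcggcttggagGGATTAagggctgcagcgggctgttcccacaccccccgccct
Aipl1: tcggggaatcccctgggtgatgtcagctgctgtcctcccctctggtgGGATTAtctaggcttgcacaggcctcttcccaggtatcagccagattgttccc
Abca4: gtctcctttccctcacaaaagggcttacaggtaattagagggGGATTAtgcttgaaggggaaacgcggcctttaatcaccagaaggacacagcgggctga
Rpgrip1: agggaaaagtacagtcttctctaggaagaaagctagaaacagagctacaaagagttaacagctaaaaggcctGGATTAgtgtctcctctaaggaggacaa
The first letter of the match lay 28 bases before the start in Rpgrip1, 42 in Gucy2e, 53 in Aipl1, 57 in Guca1a and 58 in Abca4, and Gucy2f held 2 matches on opposite strands, at 84 and 59 bases. Gucy2f alone of these 6 was called lower after light. The other 5 had log2 fold changes from -0.78 to -0.50, and Fam161a, with the smallest p of the set, had no match in its windows. A match describes letters and not binding.

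Other photoreceptor genes give the scale of these changes. The 15 rod phototransduction genes had a median log2 fold change of -0.75 after light, with 2 called lower, Rgs9bp (-0.89 ± 0.22) and Cngb1 (-0.83 ± 0.22). Gnat1, rod transducin, had -0.89 ± 0.33 (adjusted p = 0.101). The 10 cone phototransduction genes had a median of 0.25, with 9 of 10 fitted above 0 and none called by edgeR. The 1 with an unadjusted p under 0.05 was Cngb3, a subunit of the cone cyclic nucleotide-gated channel, at 0.55 ± 0.18 (adjusted p = 0.0752), and the 1 fitted below 0 was Arr3, cone arrestin, with 283 and 379.8 CPM in control and 323 and 319 CPM after light. The difference between the lists was not tested.

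Among 10 photoreceptor transcription factors the median was -0.56, and Nrl, which sets rod identity, fell by 0.96 on the log2 scale (SE 0.24, adjusted p = 0.0296), as did Prdm1 (-0.78 ± 0.18, adjusted p = 0.0243). Crx had 1803 and 1705 CPM in control and 1194 and 923 CPM after light (-0.72 ± 0.22, adjusted p = 0.0558). Of 8 photoreceptor synapse genes, Cabp4 (-0.81 ± 0.17) and Lrit3 (-0.65 ± 0.17) fell and Cplx3 rose, with a list median of -0.47. A further 34 cilium genes had a median of -0.43 with 9 called lower and 2 higher, the lowest adjusted p among those that fell belonging to Lca5 (-0.86 ± 0.17, adjusted p = 0.0156). The 8 ubiquitous splicing factors whose mutations cause dystrophy had a median of -0.19 with 0 called by edgeR and 0 at an unadjusted p under 0.05, and that median was 0.05 under scaling by total counts. With the trimmed mean all 8 were fitted below 0. In 7 of them both light libraries lay below both controls, beside 30.8% of all genes tested.

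Lists of other cells lay on both sides of 0 after light. The median was 0.70 for 10 bipolar cell genes with 6 called higher, 0.49 for 7 Müller glia genes with 1 called higher, 1.85 for 8 genes of reactive glia with 5 called higher and 3.57 for 12 microglial genes with 4 called higher. It was -0.69 for 7 tested genes of the retinal pigment epithelium, -0.32 for 4 of smooth muscle and -0.20 for 6 of pigment cells, the last 0.04 under scaling by total counts and without light 1. Without control 2 all 3 of these medians turned, to 0.19, 0.97 and 1.72. None of the genes in these 3 lists was called by edgeR, and the only one with an unadjusted p under 0.05 was Rrh of the pigment epithelium list, which was higher after light (0.51 ± 0.20). The 12 amacrine and ganglion cell genes had a median of 0.22, or -0.13 without control 2, with 0 called by edgeR and 0 at an unadjusted p under 0.05. Of the retinal pigment epithelium genes, summed over 8, control 2 had 290 CPM and the other 5 libraries 103 to 158 CPM.

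**Figure D4:**
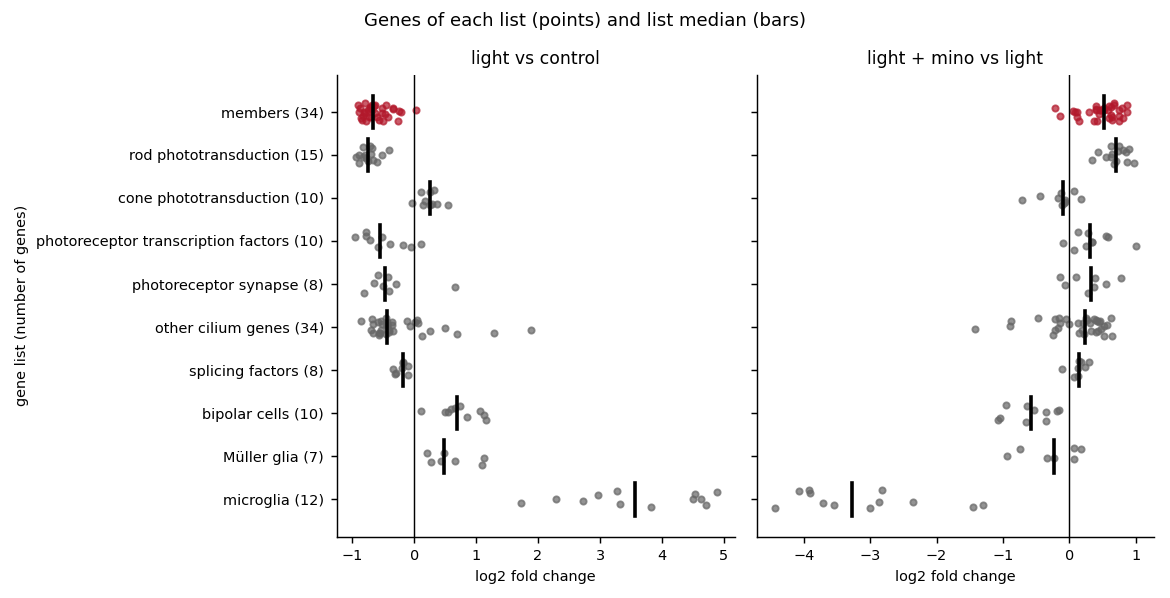
Fitted log2 fold changes of the 34 genes (members, red) and of 9 reference lists (grey), with list medians as bars, for light against control (left) and light with minocycline against light (right). The 34 genes and the rod genes are centred at -0.67 and -0.75 on the left and at 0.52 and 0.70 on the right, and the microglial genes at 3.57 and -3.28.

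Taken as a share of all counts, without scaling between libraries, the 34 genes held 4.66% and 4.35% in the controls, 3.59% and 2.86% after light, and 4.15% and 4.61% with minocycline. Light 2 had less than light 1 in 33 of 34 genes (median log2 ratio -0.38), and minocycline B more than minocycline A in 31 (median 0.18), whereas the controls divided 18 to 16. The exact permutation test over libraries (two-sided) gave p = 0.333 for light against control, which is the smallest that 2 libraries against 2 can give.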

How the data were processed

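Total RNA of 6 retinal libraries (2 control, 2 light, 2 light with minocycline) was prepared with a stranded poly(A) kit and sequenced as single reads. According to the submitters' processing notes and the study's methods, reads were aligned to mm10 with STAR and assigned to genes by an automated workflow whose groups were then compared with DESeq2; versions, gene annotation and strand setting are not given in the sources used here. The authors deposited 1 table of raw counts per gene and library. The study's data statement calls the values normalized, but they are whole numbers with unequal library totals (15205930 to 22856922) and were analysed as raw counts. No column of the authors' own comparisons was used.

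Members and gene lists were chosen with earlier results of these data known. Each pair of groups was fitted across all genes with edgeR 4.0.16 in R 4.3.3 (filterByExpr, trimmed mean of M-values, robust quasi-likelihood F test), with Benjamini-Hochberg adjustment over all genes tested and a call at an adjusted p under 0.05. A second rule kept only calls of 2 or more in size on the log2 scale, the study's cutoff. Standard errors and 95% intervals came from the same fits. CPM was scaled over all 6 libraries, and RPKM used the union of GENCODE M21 exons, whose gene positions are those printed. DESeq2 1.42.0 without shrinkage, other scalings, other filters, a replicate block and leaving out each library were alternatives. P-values measure the spread between 2 libraries a group, and the number of animals behind each is not given.

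All 34 genes could be named. Values by library were given for the 2 with the smallest p in each role for light against control, any gene against the direction of its role, any gene called with minocycline, and the gene highest per length. From the reference lists, Gnat1, Arr3, Crx, Nrl and up to 2 called genes per list with the smallest p could be named, and 1 further gene of the rule is not reported here. Rom1, Guca1a, Rd3, Reep6, Mak, Rpgr, Rpgrip1, Crb1, Cacna1f, Neurod1, Cplx3, Cngb3 and Rrh were chosen after their values were seen.

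The 2 minocycline columns share 1 header and were used as replicates with no number. Same-numbered control and light libraries did not deviate together (r = -0.01 over 14349 genes).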

Additional observations from a re-analysis of the deposited data

How the results depend on the processing

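Of the 34 genes, 10 were called lower after light in the edgeR fit. Shares of all genes called lower, 3.8% in that fit, are given in parentheses. The count was 0 (0.927%) with scaling by total counts, 20 (4.54%) without a filter on low counts, 27 (5.28%) with DESeq2, 6 (3.25%) without robust estimation, 4 (2.39%) with all 6 libraries in one fit, and 0 (0.0279%) when calls also had to reach 2 in size on the log2 scale. Leaving out 1 library gave 0 to 19 (0.0% to 3.13%). With a replicate block in the fit, control 1 paired with light 1 and control 2 with light 2, it was 21 (5.97%), though the shared numbers were not shown to pair the libraries. The count was within 1.5 times of 10 with DESeq2 size factors, upper-quartile scaling and a minimum of 10 counts in every library. The median log2 fold change moved from -0.67 to -0.43 with scaling by total counts, which moved the median of all genes from 0.00 to 0.24, and ranged from -0.86 to -0.50 when 1 library was left out. With minocycline against light, DESeq2 called 17 of the 34 higher and each other setting 0, and the median of 0.52 became 0.35 with scaling by total counts (all genes -0.17) and ranged from 0.32 to 0.75 without 1 library. With minocycline against control, no setting called any of the 34. The cause of these shifts was not tested. No called gene changed direction in any setting. No paired analysis was possible because both minocycline columns have 1 header, for either comparison that uses them. Where 1 library was left out, the lone library of its group was assumed to vary like the others. With at least 349 counts behind every value of the 34 genes, precision is limited by 2 libraries a group more than by depth.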

Other observations

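Across the 34 genes, those with a higher level in control retina tended to have the more negative log2 fold change after light (Spearman's correlation of -0.53, 34 genes), a description over genes that share the same 4 libraries and whose calls and levels come from the same counts. Exon length showed no such order (0.06).

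The control libraries differed from each other in an order that followed exon length: the log2 ratio of control 2 to control 1 was higher in longer genes (Spearman's correlation of 0.48, 34 genes). Across the 34 genes the log2 ratio of minocycline B to A, 2 libraries whose order is arbitrary, had a Spearman's correlation of 0.41 with that of control 2 to control 1.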
